A study of Mus musculus with 4 samples.

Results

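Vascular smooth muscle cells (VSMCs) contract when calcium rises in the cytoplasm and relax when it is removed. Calcium enters through voltage-gated channels of the cell surface or is released from the sarcoplasmic reticulum, the internal calcium store, and a pump returns it there. Potassium channels that open with calcium make the membrane potential more negative, which closes the voltage-gated channels, and cyclic GMP and cyclic AMP lower calcium further until phosphodiesterases break them down. The 10 genes described here encode parts of this machinery: Pln, Atp2a2, Ryr2 and Itpr1 act at the store, Cacna1c at calcium entry, Kcnma1 and Kcnmb1 form the calcium-activated potassium channel, and Prkg1, Pde5a and Pde3a act on or through cyclic nucleotides. They were chosen by name for these roles. All 10 were listed in each library, out of 34469 genes listed over the 4 libraries.

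The 4 libraries were single-cell RNA-seq profiles (10x Genomics 3′ v3) from C57Bl/6 mice, with 1 library per genotype in each of 2 models. In the first model, plaques were taken from the aortic root, the aortic arch and the carotid arteries of Myh11-CreERt2/Confetti/ApoE-/- mice (control) and Myh11-CreERt2/Confetti/Sm22a-Trf2T188A/ApoE-/- mice (Trf2T188A). Both plaque genotypes therefore lacked ApoE and carried the tamoxifen-induced Myh11 Cre with the Confetti reporter, which marks cells that expressed the smooth muscle myosin gene Myh11 at induction. They received tamoxifen from 6 weeks of age and then a high fat diet for 14 weeks, and the authors kept cells of clusters that expressed Confetti. In the second model, carotid arteries were taken 28 days after ligation from SM22a-TRF2T188A mice and wild type controls aged 4 to 5 months, without a lineage label in the genotype given and with the adventitia and non-remodelled parts removed. Trf2T188A is a point mutant of TRF2, a protein that protects telomeres, driven by a minimal promoter of the smooth muscle gene Sm22a. How many mice made up a library was not given in the sources used here. The level of Terf2, the gene for TRF2, was 0.189 UMIs per 10000 in control and 0.180 in Trf2T188A plaque cells, and 0.180 and 0.164 after ligation. This level did not mark the transgenic libraries, and whether reads of the transgene can be counted under Terf2 was not tested.

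The plaque control library held 1502 cells and 37869934 UMIs, the plaque Trf2T188A library 929 cells and 24064570 UMIs, the ligation control library 4967 cells and 47713453 UMIs, and the ligation Trf2T188A library 5392 cells and 67426588 UMIs. The median cell held 22765.5 and 24377 UMIs in plaque against 8631 and 11153 after ligation. The ligation libraries shared 10 cell barcodes and the plaque libraries none. A level below is the mean over cells of UMIs (unique transcript molecules) per 10000 UMIs of the cell, and it is compared only within a gene. A difference is given as the log2 ratio of 2 mean levels after adding 1 to each, beside the plain fold with its 95% interval. A ratio of at least 0.25 in size in a gene with a UMI in 10% or more of the cells on 1 side is named as past the limit. With 1 library per genotype there was no replicate check and no test, and the intervals cover counting error only. Markers of heart muscle cells, which also express Pln, Atp2a2, Ryr2, Cacna1c and Pde3a, were low in plaque: the 10 markers summed to 0.467, of which Tnnt2 made up 0.423, and Myl7 was at 0.

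Cells were clustered without the 10 genes, their pathway genes and 5 contractile reference genes among the variable genes. Clusters were named from markers or from 1 or 2 leading genes. In plaque, the contractile-like cluster held 320 control and 165 Trf2T188A cells, the fibromyocyte-like cluster 159 and 129, and the chondrocyte-like cluster 81 and 63. Fibromyocyte and chondrocyte here are the field's names for VSMC-derived cells that express matrix genes or cartilage genes. The other plaque clusters were Itih4 Wnt16 (224 and 165), Sparcl1 Atf3 (229 and 74), Mylk4 (175 and 84), complement (110 and 78), Dmd Nav2 (79 and 98), Adamtsl1 Mdga2 (39 and 40) and Sncg Notch3 (50 and 23), beside 3 smallest clusters of 36 and 10 cells together, which are given only as a pool. The Sparcl1 Atf3 cluster, named here by leading genes, matched a list of immediate early markers. Their mean log2 ratio was 0.60, with 6 of 10 markers at or above 0.5. The levels of 12 listed digestion-induced genes summed to 136.5 in this cluster. The sum was 51.3 in contractile-like cells and highest, at 191.3, in Dmd Nav2 cells. With the cells listed in another order, Sparcl1 Atf3 shared 94 of its 303 cells with its counterpart. The Adamtsl1 Mdga2 and Mylk4 clusters were not looked for there, because Mylk4 matched no marker list and the Adamtsl1 Mdga2 list also named a smallest cluster. After ligation, 4886 control and 5270 Trf2T188A cells were smooth muscle, in the Igfbp2 Postn, Sparcl1 Rbp4, Gdf10 Ecrg4 and interferon clusters, beside small endothelial-like and immune-like clusters.

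Pln encodes phospholamban, the small inhibitor of the calcium pump of the store (GRCm38, chr10:53337667-53345987, plus strand). Its highest level in plaque was in the Sncg Notch3 cluster, at 2.99 in the control and 2.57 in the Trf2T188A library, from 218 and 93 UMIs. In contractile-like cells the level was 0.160 and 0.217, and in fibromyocyte-like cells 0.031 and 0.056. The Sncg Notch3 cells stood above every other plaque cluster in both libraries, and the Sparcl1 Atf3 cluster, next in order, reached 0.391 and 0.321. Over both libraries, Pln was 15.9-fold (13.1 to 19.4) higher in Sncg Notch3 than in contractile-like cells, a log2 ratio of 1.71. The cluster made up 3.0% of plaque cells and held 22.9% of the Pln UMIs. With every cell thinned to 8000 UMIs, 34 of 67 Sncg Notch3 cells (50.7%) had a Pln UMI, against 9.62% of contractile-like and 1.86% of fibromyocyte-like cells. Pln was among the leading genes of this cluster and was kept out of the genes that formed it. The marker list that named the cluster was chosen with earlier results of these data known.

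Atp2a2 encodes SERCA2, the pump that phospholamban inhibits (chr5:122453513-122502225, minus strand). Its level was 5.81 in control and 5.72 in Trf2T188A contractile-like cells. It was 2.11 and 2.12 in fibromyocyte-like cells and 1.14 and 0.990 in chondrocyte-like cells. Levels in the Mylk4, Adamtsl1 Mdga2 and Dmd Nav2 clusters lay at the top with overlapping counting intervals, and the contractile-like and Sparcl1 Atf3 clusters could not be told apart. The pump and its inhibitor therefore had different orders over the clusters: in Sncg Notch3 cells, where Pln was highest, Atp2a2 was 5.24 and 5.12, below the contractile-like level.

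Ryr2 (chr13:11553102-12106945, minus strand) and Itpr1 (chr6:108213096-108551109, plus strand) encode the store's release channels, the ryanodine receptor and the IP3 receptor. The Ryr2 level was 1.60 in control and 1.54 in Trf2T188A contractile-like cells, 0.782 and 0.798 in fibromyocyte-like cells, 0.277 and 0.156 in chondrocyte-like cells, and 7.19 and 6.23 in Dmd Nav2 cells. The Itpr1 level was 2.89 and 2.58, 1.55 and 1.34, 0.988 and 1.05, and 7.30 and 5.74 in the same 4 clusters. Both release channels were highest in Dmd Nav2 cells and lowest in chondrocyte-like cells, with a highest-to-lowest fold of 29.7 for Ryr2 and 6.34 for Itpr1. Cacna1c encodes the pore of the L-type calcium channel, the main route of calcium entry (chr6:118587240-119196418, minus strand). Its level was 1.68 and 1.44 in contractile-like, 1.21 and 1.27 in fibromyocyte-like, 0.094 and 0.097 in chondrocyte-like and 6.23 and 6.50 in Dmd Nav2 cells. In chondrocyte-like cells Cacna1c was near 0 in both libraries, at 0.059-fold (0.038 to 0.093) of the contractile-like level.

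Kcnma1 encodes the pore of the large-conductance calcium-activated potassium channel (chr14:23289431-24014491, minus strand) and Kcnmb1 the smooth muscle beta subunit that raises its calcium sensitivity (chr11:33963013-33973641, plus strand). The subunits differed in their order over the clusters. Kcnmb1 was 2.05 in control and 2.18 in Trf2T188A contractile-like cells, 0.394 and 0.243 in fibromyocyte-like cells, and 0.022 and 0.046 in chondrocyte-like cells. Thinned to 8000 UMIs, 79.3% of contractile-like, 19.3% of fibromyocyte-like and 1 of 135 chondrocyte-like cells (0.74%) had a Kcnmb1 UMI. Kcnma1, in contrast, was 2.40 and 2.19 in contractile-like, 1.48 and 1.46 in fibromyocyte-like and 4.31 and 3.85 in chondrocyte-like cells. Chondrocyte-like cells thus had 1.77-fold (1.65 to 1.89) the contractile-like level of the pore transcript and 0.016-fold (0.004 to 0.056) that of the beta subunit.

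Prkg1 encodes the cyclic GMP-dependent protein kinase (chr19:30564489-31765033, minus strand). Its level was 4.98 in control and 4.60 in Trf2T188A contractile-like cells, 3.53 and 3.84 in fibromyocyte-like cells, and 12.5 and 8.84 in chondrocyte-like cells. It was lowest in fibromyocyte-like cells and, like Kcnma1, higher in chondrocyte-like than in contractile-like cells. Pde5a encodes the phosphodiesterase that degrades cyclic GMP (chr3:122728947-122859374, plus strand). Its level was 2.11 and 2.05 in contractile-like, 0.828 and 0.791 in fibromyocyte-like, 0.202 and 0.332 in chondrocyte-like and 5.22 and 4.26 in Adamtsl1 Mdga2 cells. The last of these was the highest Pde5a level among the 10 plaque clusters compared, in either library. Pde3a encodes the phosphodiesterase that degrades cyclic AMP and is inhibited by cyclic GMP (chr6:141249269-141507448, plus strand). Its level was 6.73 and 6.22 in contractile-like, 7.03 and 9.14 in fibromyocyte-like, 3.43 and 2.82 in chondrocyte-like and 17.5 and 18 in Dmd Nav2 cells. Pde3a was the only one of the 10 genes above the contractile-like level in fibromyocyte-like cells.

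**Figure D1:**
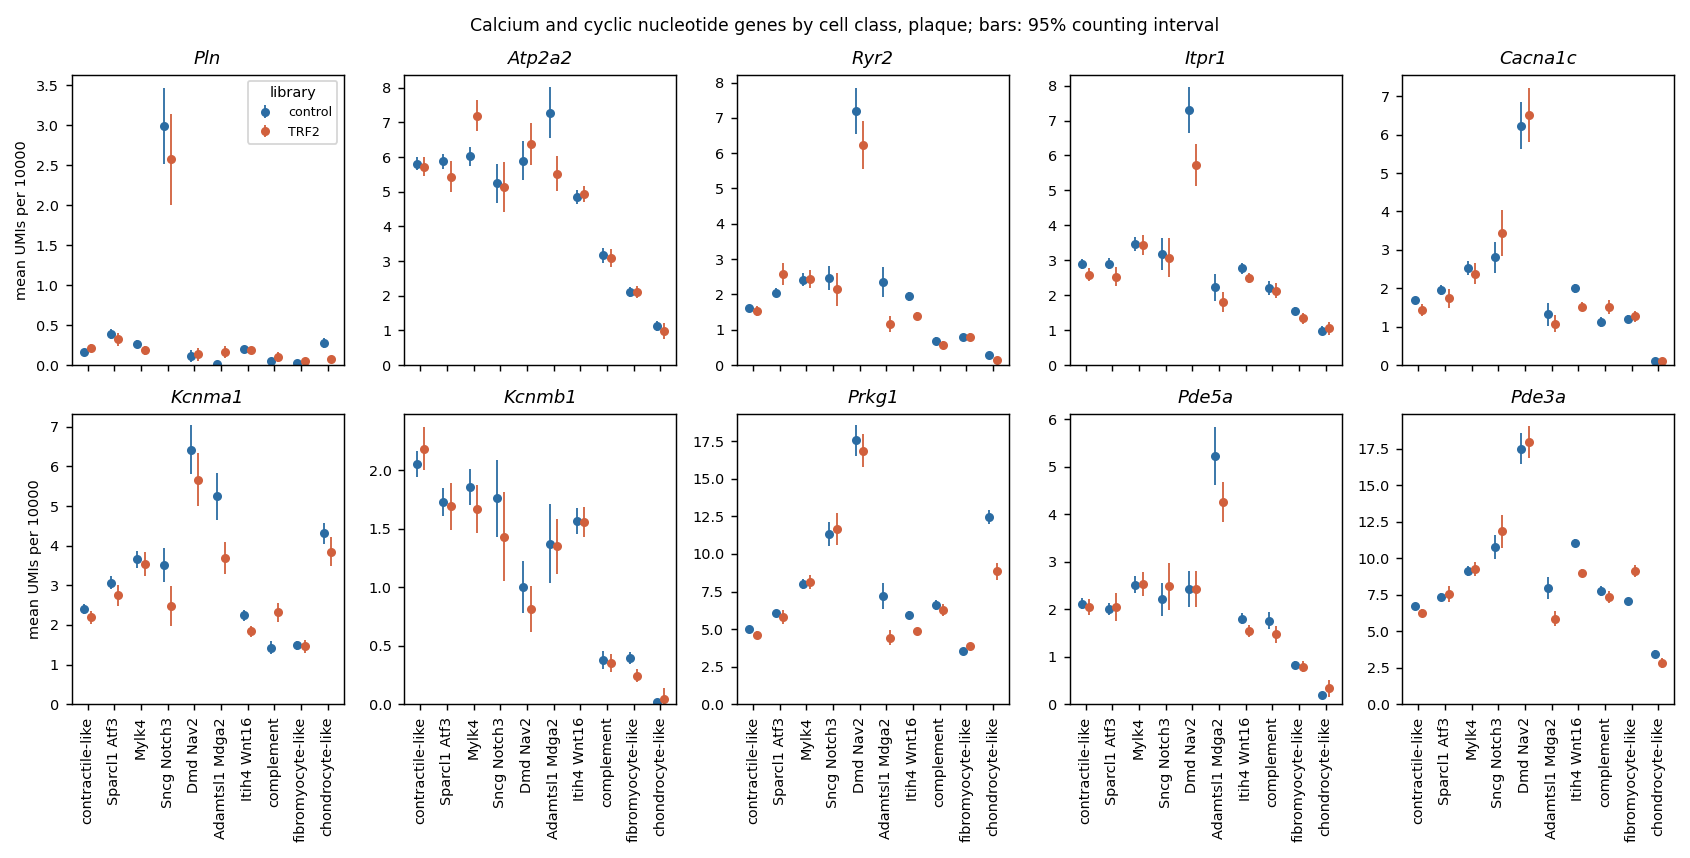
Mean UMIs per 10000 of the 10 genes (panels) in the plaque clusters, with control and Trf2T188A (labelled TRF2) libraries as separate points and bars for the 95% counting interval. Pln stands apart in the Sncg Notch3 cluster (2.99 and 2.57), and Kcnmb1 is close to 0 in chondrocyte-like cells while Kcnma1 is not.

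Set against contractile-like cells over both libraries, the fibromyocyte-like cluster had 7 of the 10 genes past the limit lower and 0 higher. Over all detected genes, 9.47% were past the limit lower and 9.24% higher. The 7 genes were Atp2a2, Ryr2, Itpr1, Kcnma1, Kcnmb1, Prkg1 and Pde5a, and the median log2 ratio of the 10 was −0.48, beside 0.01 for all detected genes. Kcnmb1 had the lowest ratio, at −1.22 and 0.156-fold (0.138 to 0.176). Atp2a2 was at 0.365-fold (0.344 to 0.387), Pde5a at 0.388-fold (0.351 to 0.430) and Ryr2 at 0.499-fold (0.449 to 0.554). Pln, at low levels on both sides, was at 0.236-fold (0.147 to 0.379) with a log2 ratio of −0.18, within the limit. At its contractile-like level of 0.179, Pln could not pass the limit lower even if absent. The counts of genes lower than in contractile-like cells over both libraries therefore could not include Pln in any plaque cluster. Cacna1c was at 0.771-fold with a log2 ratio of −0.22, also within it. Pde3a was at 1.22-fold (1.17 to 1.26), within it too. The contractile reference genes lay lower still, at −3.64 for Myh11, −3.11 for Acta2, −2.91 for Tagln, −2.96 for Cnn1 and −1.52 for Smtn, against which Atp2a2 was at −1.12. Within the control library alone the median of the 10 was −0.50, and within the Trf2T188A library alone it was −0.44. With a pseudocount of 0.1 it was −0.91. It was −0.66 with the contractile-like, Sparcl1 Atf3 and Mylk4 clusters pooled as the reference, a choice made after the data were seen. In that pool, the Sparcl1 Atf3 cluster matched the immediate early list and Mylk4 matched no list.

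In chondrocyte-like cells the median was −0.99, with 7 genes past the limit lower and 2 higher, beside 16.2% and 9.82% of all detected genes. The genes higher were Prkg1, at 2.24-fold (2.15 to 2.35), and Kcnma1. The Pln level was 0.187 against 0.179 in contractile-like cells over both libraries, but 0.276 in control and 0.074 in Trf2T188A chondrocyte-like cells. Atp2a2 was at 0.185-fold, Ryr2 at 0.142-fold, Pde5a at 0.124-fold and Pde3a at 0.482-fold. The contractile reference genes ran from −1.72 for Smtn to −5.83 for Acta2. In complement cells 4 genes were lower and 1 higher, beside 8.26% and 10%, with a median of −0.24. In Itih4 Wnt16 cells 1 was lower and 1 higher, beside 2.28% and 4.37%. In Sparcl1 Atf3 cells 0 were lower and 3 higher, beside 0.851% and 3.28%. In Mylk4 cells 0 were lower and 5 higher, beside 1.73% and 3.9%, with a median of 0.32. In Sncg Notch3 cells 0 were lower and 6 higher, beside 3.4% and 5.83%, and in Adamtsl1 Mdga2 cells 2 were lower and 2 higher, beside 5.67% and 9.8%. In the 3 smallest clusters pooled 5 were lower and 3 higher, beside 8.03% and 14.8%. Of the 10 clusters named above, the fibromyocyte-like, chondrocyte-like and complement clusters were thus the 3 in which more of the genes lay lower than higher.

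**Figure D2:**
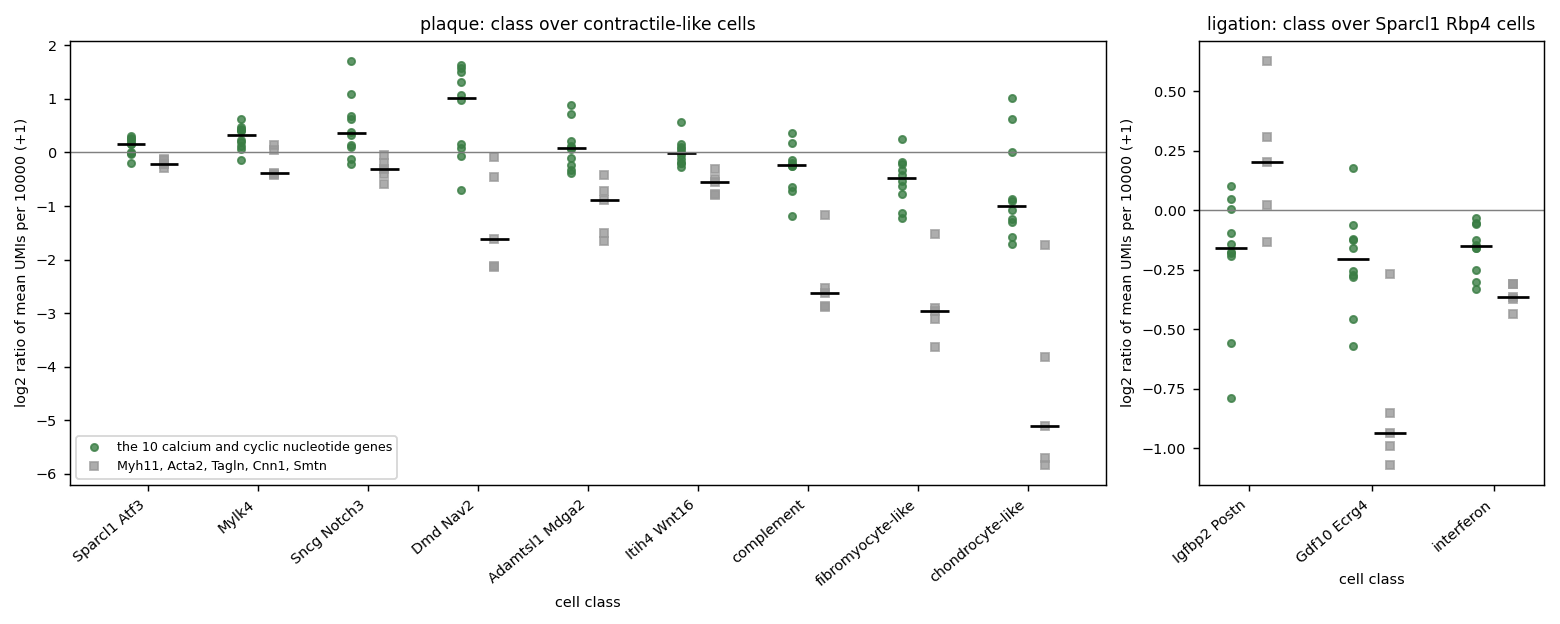
Log2 ratio of mean UMIs per 10000 in each cluster over the reference cluster of its model (contractile-like in plaque, Sparcl1 Rbp4 after ligation), both libraries together, with a circle for each of the 10 genes, a square for each contractile reference gene and a bar for the median of each group. In fibromyocyte-like cells the median of the 10 genes is −0.48 and the squares lie lower, down to −3.64 for Myh11.

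The Dmd Nav2 cluster was unlike the others in depth and RNA composition. Its median cell held 8142 UMIs, its mitochondrial share was 3.97%, and the nuclear-retained transcript Malat1 was at 661 UMIs per 10000, against 237 in contractile-like cells. Of the 10 genes, 6 were past the limit higher and 1 lower than in contractile-like cells, beside 20.8% and 16.1% of all detected genes. Against all other plaque cells, Ryr2 was 4.38-fold higher, a log2 ratio of 1.60, Cacna1c had a ratio of 1.47, Prkg1 1.34, Itpr1 1.10, Pde3a 1.10 and Kcnma1 0.96. Atp2a2 had 0.33, Pde5a 0.24, Pln −0.18 and Kcnmb1 −0.30. The 6 genes highest here were those with the longest annotated spans, from 258 kb for Pde3a to 1200.55 kb for Prkg1, of which exons made up 0.905%. Pln spans 8.32 kb and Kcnmb1 10.6 kb. Over the 10 genes the log2 ratio correlated with the log10 span with Pearson's r of 0.93 and Spearman's rho of 0.77. This is a description over 10 genes from the same cells, which are not independent. All detected genes showed the same order on a smaller scale, with a median of −0.08 for spans under 20 kb and 0.47 for spans of at least 200 kb. Whether intronic reads were counted was not given in the sources used here, and their part in these levels was not tested.

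**Figure D3:**
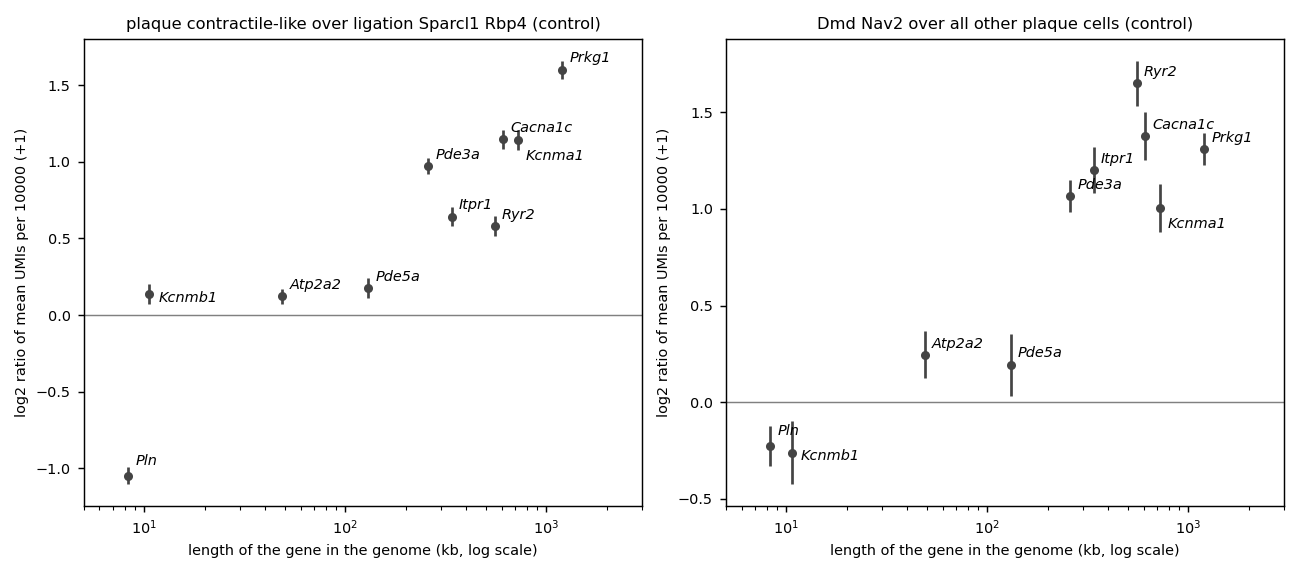
Log2 ratio of the 10 genes against annotated gene span (kb, log axis), for plaque contractile-like over ligation Sparcl1 Rbp4 cells of the control libraries (left) and for Dmd Nav2 over all other plaque cells of the control library (right), with bars for the 95% counting interval. The long genes lie higher in both panels, and Pln and Kcnmb1, the shortest, are the lowest in the right panel.

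The comparison of genotypes asked whether VSMCs with the mutant TRF2 expressed the machinery at other levels. Over all plaque cells, 0 of the 10 genes were past the limit in either direction, as were 0.817% of all detected genes. The log2 ratio of Trf2T188A over control ran from −0.11 for Kcnmb1 and Pde5a to 0.05 for Pde3a, with a median of −0.06 beside 0.00 for all detected genes. Pln went from 0.290 to 0.220, at 0.759-fold (0.665 to 0.865), with Kcnmb1 at 0.869-fold (0.822 to 0.918), Pde5a at 0.888-fold and Pde3a at 1.04-fold (1.01 to 1.06). Levels of Ryr2 were 1.90 and 1.88, and those of Cacna1c 2.02 in both libraries. The Dmd Nav2 cluster made up 5.26% of control and 10.5% of Trf2T188A cells, and without it, a choice made after the data were seen, the median was −0.13 and all 10 genes lay below 0, from −0.17 for Prkg1 to −0.04 for Pde3a. Over the 10 genes the ratio had a Pearson's r with log10 span of 0.49 with these cells and −0.60 without them. Other clusters also differed in their share of control and Trf2T188A cells. These shares were 21.3% and 17.8% for contractile-like, 15.2% and 7.97% for Sparcl1 Atf3, and 11.7% and 9.04% for Mylk4 cells. Fibromyocyte-like cells made up 10.6% and 13.9%. Within the 10 named clusters the median ratio of the genes ran from −0.29 (Adamtsl1 Mdga2) to 0.01 (fibromyocyte-like). The part of the shares in the whole-plaque ratios was not tested. The authors' minimum of genes per cell was 1500 in the control and 1000 in the Trf2T188A plaque library, and 32 Trf2T188A cells had fewer than 1500, 14 of them in the Dmd Nav2 cluster. The 5 contractile reference genes had a median of −0.17 over all plaque cells, and Myh11 was past the limit at −0.29 (28.5 in control, 23.1 in Trf2T188A). The sum of the 10 heart muscle markers was 0.603 in control and 0.247 in Trf2T188A plaque cells, of which Tnnt2 made up 0.556 and 0.208, and their part in these ratios was not tested.

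Within the contractile-like cluster 0 of the 10 genes were past the limit, beside 0.499% of all detected genes, and the same held for Sparcl1 Atf3 (1.1%) and Mylk4 (1.14%). In Itih4 Wnt16 cells 2 genes were past it, both lower, beside 0.425% of all detected genes lower. Ryr2 went from 1.95 to 1.38, a ratio of −0.31 and 0.708-fold (0.637 to 0.786), and Pde3a from 11 to 8.99, 0.814-fold (0.780 to 0.849). In fibromyocyte-like cells Pde3a was the 1 gene past it, higher, beside 1.12% of all detected genes higher, from 7.03 to 9.14, a ratio of 0.34 and 1.3-fold (1.23 to 1.38), which was 0.17 as a difference of mean log2 values. Pde3a therefore lay lower in one plaque cluster and higher in the other. The contractile reference genes of fibromyocyte-like cells had a median of −0.45 in the same comparison. In complement cells Kcnma1 was past the limit higher, beside 1.55%, from 1.43 to 2.32 and 1.62-fold (1.40 to 1.89). In chondrocyte-like cells it was Prkg1, lower, beside 1.96%, from 12.5 to 8.84 and 0.708-fold (0.657 to 0.764).

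Shares of all detected genes past the limit were larger in the Adamtsl1 Mdga2, Dmd Nav2 and Sncg Notch3 clusters than in the other plaque clusters. In Adamtsl1 Mdga2 cells 5 genes were past the limit lower, beside 5.06% of all detected genes lower, from 39 control and 40 Trf2T188A cells. They were Ryr2 at 0.498-fold (0.382 to 0.650), Prkg1 at 0.613-fold, Kcnma1 at 0.703-fold, Pde3a at 0.735-fold and Atp2a2 at 0.759-fold. Thinning the cells to a common depth moved Prkg1 there from −0.60 to −0.29. In Dmd Nav2 cells Itpr1 was past the limit at −0.30, beside 4.91% lower, but at −0.12 after thinning. Malat1 was at 544 in control and 756 in Trf2T188A cells of that cluster. In Sncg Notch3 cells it was Kcnma1, at 0.707-fold (0.558 to 0.895), beside 4.18% lower, and Pln, the gene that set this cluster apart, was 2.99 and 2.57.

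**Figure D4:**
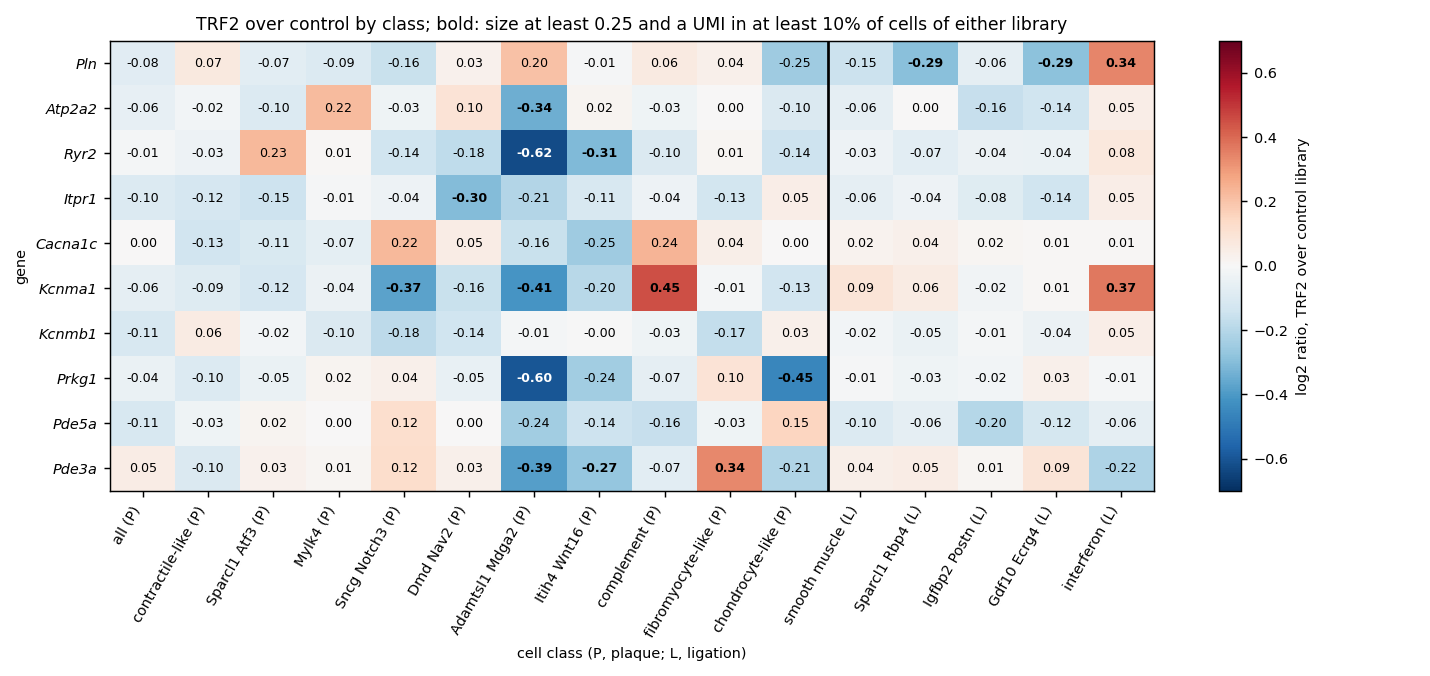
Heat map of the log2 ratio of Trf2T188A (labelled TRF2) over control for the 10 genes (lines) in plaque (P) and ligation (L) cells, for whole models and single clusters, with the ratio printed in each field and those past the limit in bold. Over all plaque cells and over ligation smooth muscle cells no field is bold, and Adamtsl1 Mdga2 has the most bold fields, 5.

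After ligation the store genes had another order. The Pln level was 1.40 in control and 0.961 in Trf2T188A cells of the contractile Sparcl1 Rbp4 cluster, 1.10 and 0.722 in Gdf10 Ecrg4 cells, and 0.262 and 0.207 in Igfbp2 Postn cells. Pln was thus lowest among these 3 in Igfbp2 Postn cells in both libraries, at 0.208-fold (0.192 to 0.225) of the Sparcl1 Rbp4 level. The Sparcl1 Rbp4 cells, 35.9% of all ligation cells, held 57.1% of the Pln UMIs, and the Gdf10 Ecrg4 cells held 29.0%. Atp2a2 was even by comparison, at 5.26 and 5.27 in Sparcl1 Rbp4, 4.50 and 4.0 in Gdf10 Ecrg4 and 4.84 and 4.22 in Igfbp2 Postn cells. Ryr2 was 0.740 and 0.654, 0.574 and 0.527, and 0.511 and 0.467 in the same order, and Itpr1 1.49 and 1.43, 1.47 and 1.24, and 1.28 and 1.16. Both release channels were highest in Sparcl1 Rbp4 cells, Itpr1 with intervals that overlapped those of interferon cells. Cacna1c was low throughout, between 0.127 and 0.244 in these 3 clusters.

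Of the 10 genes, Kcnma1 had the largest share of its UMIs in a single ligation cluster. Its level was 0.539 in control and 0.604 in Trf2T188A Sparcl1 Rbp4 cells, 0.059 and 0.066 in Gdf10 Ecrg4 cells, and 0.082 and 0.064 in Igfbp2 Postn cells. The Sparcl1 Rbp4 cluster held 80.6% of its UMIs, and the folds were 0.108 (0.092 to 0.127) in Gdf10 Ecrg4 and 0.127 (0.111 to 0.144) in Igfbp2 Postn cells. Its partner Kcnmb1 was 1.78 and 1.69 in Sparcl1 Rbp4, 1.83 and 1.81 in Igfbp2 Postn and 1.02 and 0.963 in Gdf10 Ecrg4 cells. The beta subunit was therefore as high in Igfbp2 Postn cells as in Sparcl1 Rbp4 cells, where the pore transcript differed. Thinned to 5000 UMIs, Kcnma1 was seen in 23.0% of control and 23.9% of Trf2T188A Sparcl1 Rbp4 cells and in 3.70% and 2.68% of Igfbp2 Postn cells. In clusters that should lack these genes, 0 of 121 thinned endothelial-like cells had a UMI of Pln or Kcnma1, which allows a share of up to 2.48%, and 1 of 60 thinned immune-like cells (1.67%) had Pln and 2 of 60 (3.33%) Kcnma1. The limit of 2.48% lay below the interval of the control Igfbp2 Postn share of Kcnma1 (2.90% to 4.64%) and within that of the Trf2T188A share (1.98% to 3.55%). The immune-like share lay between the 2 Igfbp2 Postn shares but rests on 2 cells. Whether these shares exceed background was not tested. Endothelial-like cells had unthinned median depths of 10407 and 14166 UMIs, against 8505.5 and 11367 in Sparcl1 Rbp4 cells.

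Of the cyclic nucleotide genes, Prkg1 was 0.971 in control and 0.929 in Trf2T188A Sparcl1 Rbp4 cells and 1.17 and 1.23 in Gdf10 Ecrg4 cells, where it was highest. Pde5a was 1.75 and 1.64 against 1.3 and 1.12, and Pde3a 2.94 and 3.08 against 2.23 and 2.44. Both phosphodiesterases were thus lower in Gdf10 Ecrg4 cells and the kinase was not. Pde3a and Itpr1 were also present in endothelial-like cells, Pde3a at 2.96 and 2.59 and Itpr1 at 1.33 and 1.26, whereas the other 8 genes were past the limit lower there. Against Sparcl1 Rbp4 cells, 5 of the 10 genes were past the limit lower and 0 higher in Gdf10 Ecrg4 cells, beside 5.1% and 5.31% of all detected genes. These were Kcnma1, Kcnmb1 at 0.573-fold, Pde5a at 0.720-fold, Pde3a at 0.772-fold and Atp2a2 at 0.807-fold. Cacna1c, at 0.231 in Sparcl1 Rbp4 cells, was too low to pass the limit unless almost absent. Thinned to 5000 UMIs, 5.97% of Gdf10 Ecrg4 and 10.7% of Sparcl1 Rbp4 cells had a Cacna1c UMI. The median of the 10 was −0.21 beside −0.93 for the contractile reference genes. In Igfbp2 Postn cells 2 were lower and 0 higher, beside 2.54% and 2.68%, and the contractile reference genes had a median of 0.20. In interferon cells 3 were lower and 0 higher, beside 1.4% and 3.34%. In endothelial-like cells 8 were lower and 0 higher, beside 12.7% and 15.1%, and in immune-like cells 9 and 0, beside 21.4% and 18.7%.

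**Figure D5:**
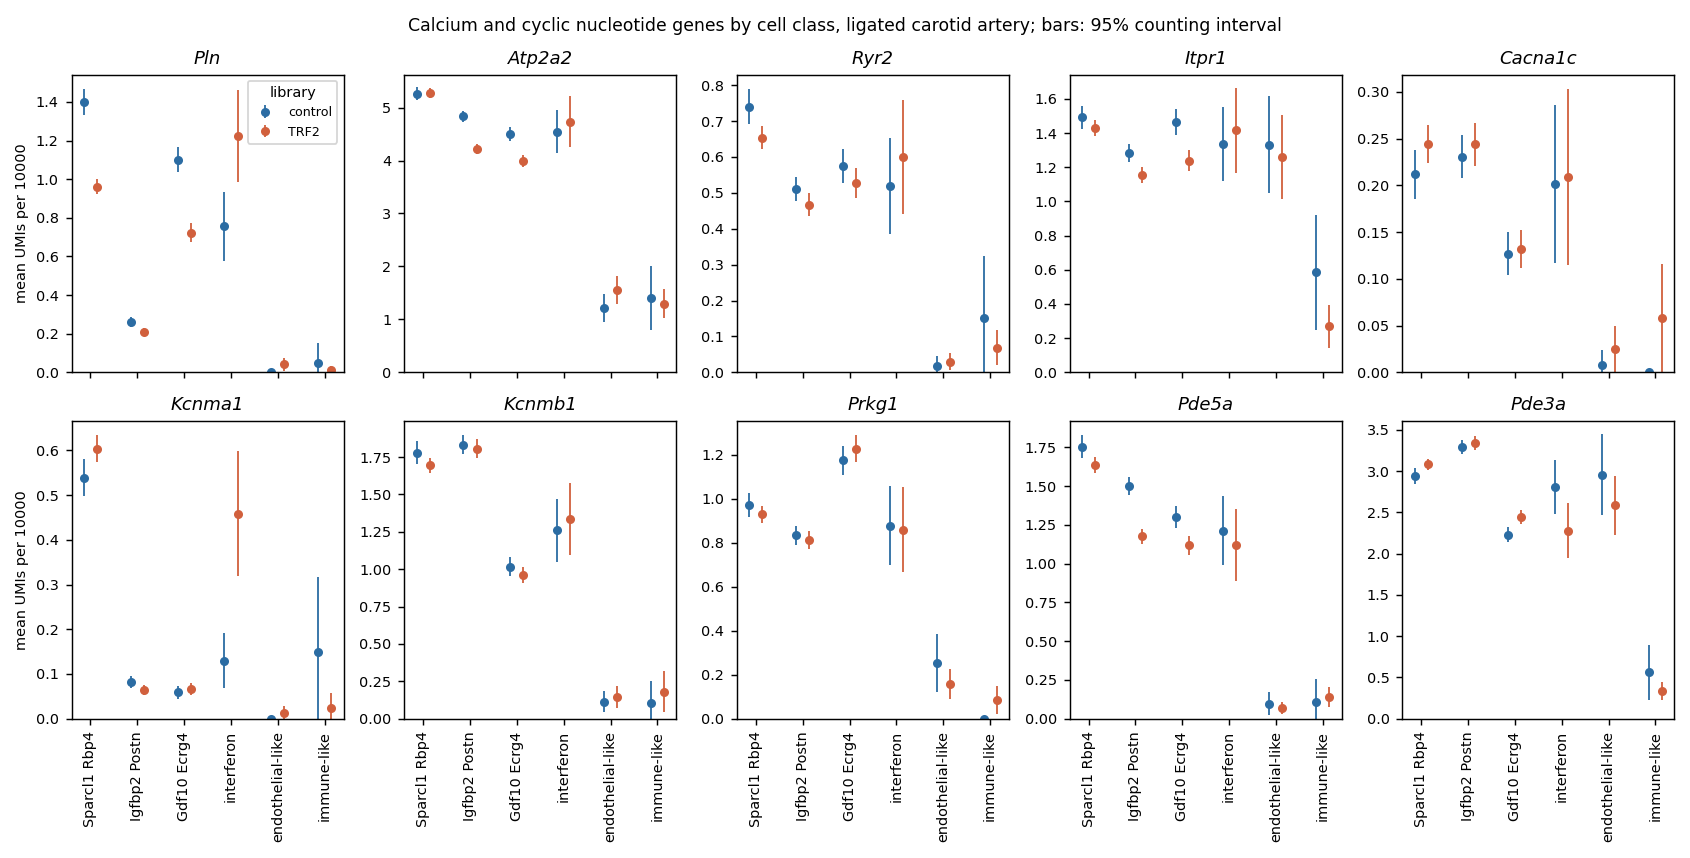
Mean UMIs per 10000 of the 10 genes (panels) in the ligation clusters, with control and Trf2T188A (labelled TRF2) libraries as separate points and bars for the 95% counting interval. Kcnma1 is highest in the Sparcl1 Rbp4 cluster (0.539 and 0.604), and Pln is low in the Igfbp2 Postn cluster (0.262 and 0.207).

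Over all ligation smooth muscle cells, 0 of the 10 genes were past the limit between genotypes, beside 1.06% of all detected genes. The median log2 ratio of Trf2T188A over control was −0.03, with 3 genes above 0, and it was 0.01 as a difference of mean log2 values. All detected genes and the contractile reference genes had medians of 0.00 and −0.01. Pln had the lowest ratio, −0.15 and 0.781-fold (0.745 to 0.820), from 3779 and 4131 UMIs. Kcnma1 had the highest, 0.09 and 1.36-fold (1.26 to 1.48), from 1039 and 2053 UMIs. The Sparcl1 Rbp4 cluster, which held most Kcnma1 UMIs, made up 30.2% of control and 41.2% of Trf2T188A ligation cells, and within it Kcnma1 was at 1.12-fold (1.02 to 1.23). In Igfbp2 Postn cells it was at 0.780-fold (0.613 to 0.992). Within clusters, Pln was past the limit lower in Sparcl1 Rbp4 cells, beside 0.157% of all detected genes lower, at −0.29 and 0.686-fold (0.644 to 0.731). It was also lower in Gdf10 Ecrg4 cells, beside 0.483%, at −0.29 and 0.656-fold (0.599 to 0.717). As a difference of mean log2 values these were −0.16 and −0.19. Thinned to 5000 UMIs, 33.1% of control and 27.2% of Trf2T188A Sparcl1 Rbp4 cells had a Pln UMI, as did 26.9% and 19.3% of Gdf10 Ecrg4 cells. Among interferon cells, 117 control and 72 Trf2T188A, Pln and Kcnma1 were past the limit higher, beside 2.52%. Pln was at 1.62-fold (1.20 to 2.20) from 83 and 110 UMIs, and Kcnma1 at 3.53-fold (2.02 to 6.19) from 19 and 46. In Igfbp2 Postn cells 0 were past it, beside 2.21%. The lower Pln level of the Trf2T188A library was thus seen in 3 of the 4 smooth muscle clusters, past the limit in 2 of them.

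Ratios of plaque to ligation levels are given as a description of these libraries, because model, ApoE genotype, vessel, diet and processing version cannot be told apart. In the control libraries, plaque contractile-like cells had 0.114-fold the Pln level of ligation Sparcl1 Rbp4 cells and 7.95-fold the Cacna1c level, 5.13-fold for Prkg1, 4.45-fold for Kcnma1, 2.29-fold for Pde3a, 2.16-fold for Ryr2 and 1.94-fold for Itpr1. Kcnmb1, Atp2a2 and Pde5a lay between 1.10-fold and 1.20-fold. The Trf2T188A libraries gave 0.226-fold for Pln, 5.91-fold for Cacna1c and 4.95-fold for Prkg1. These log2 ratios followed gene span as well, with Pearson's r of 0.89 and Spearman's rho of 0.93 over the 10 genes, beside medians over all detected genes of 0.00 for spans under 20 kb and 0.18 for spans of at least 200 kb. The authors processed the plaque libraries with Cell Ranger 7.0.0 and the ligation libraries with Cell Ranger 6.1.2. On the opposite strand, Pln overlaps Cep85l, Kcnmb1 overlaps Kcnip1, Cacna1c overlaps Dcp1b and Prkg1 overlaps Cstf2t.

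The 59 other genes of the pathways fell into 6 lists. Over all plaque cells 50 were detected and 1 was past the limit between genotypes, the potassium channel gene Kcnq5, from 2.48 to 3.23 and 1.3-fold, beside 0.817% of all detected genes. The list medians were 0.01 for the calcium store and extrusion (13 of 18 detected), −0.03 for voltage-gated calcium channel subunits (4 of 5), −0.03 for potassium channels (6 of 8), −0.01 for cyclic GMP (9 of 9), −0.01 for cyclic AMP (10 of 11) and −0.11 for myosin light chain kinase and phosphatase (8 of 8). Over ligation smooth muscle cells 42 were detected and 1 was past it, Ppp1r12a, which encodes the targeting subunit of myosin phosphatase, from 8.64 to 7.05 and 0.816-fold, beside 1.06% of all detected genes. There the medians of the same lists were −0.04, −0.02, 0.04, 0.02, −0.03 and −0.04.

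Between clusters the lists differed more. In fibromyocyte-like cells 22 of 51 detected pathway genes were past the limit lower and 9 higher than in contractile-like cells, beside 9.47% and 9.24% of all detected genes. The myosin light chain kinase and phosphatase list had 7 of its 8 genes lower, with a median of −1.41. The lowest of all were Ppp1r14a, the phosphatase inhibitor CPI-17, from 9.97 to 0.83, Mylk, myosin light chain kinase, from 11.5 to 1.77, and Ramp1, a subunit of the CGRP receptor, at −2.06. The highest were Atp2b1, a calcium pump of the cell surface, from 0.84 to 2.92, and the phosphodiesterases Pde4d (0.97) and Pde1a (0.94). In chondrocyte-like cells 27 of 50 were lower and 6 higher, beside 16.2% and 9.82%, with all 8 genes of the myosin list lower (median −1.82). Mylk and Ppp1r14a were at −3.10 and Rock1 at −2.42, while Kcnq5 went from 1.33 to 9.78, Pde4d was at 1.55 and Atp2b1 at 1.46. The fibromyocyte-like and chondrocyte-like clusters shared Mylk and Ppp1r14a among the 3 lowest, and Atp2b1 and Pde4d among the 3 highest. In Dmd Nav2 cells the highest were Pde4b (1.82), Kcnq5 (1.58) and Cacnb2 (1.56). In Gdf10 Ecrg4 cells after ligation 13 of 44 were lower and 1 higher than in Sparcl1 Rbp4 cells, beside 5.1% and 5.31%, with 6 of 8 genes of the myosin list lower (median −0.54), led by Ppp1r14a at −1.14, and Calcrl highest at 0.35. In Igfbp2 Postn cells 9 of 45 were lower and 4 higher, beside 2.54% and 2.68%, from −0.60 for Abcc9, a subunit of the ATP-sensitive potassium channel, to 0.36 for Ppp1r14a.

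Over the 10 plaque clusters the genes did not share 1 pattern. The correlation of log2 levels between pairs of the 10 genes had a median r of 0.51 over 45 pairs, with 1 pair below 0. Without the Dmd Nav2 cluster the median was 0.54, with 8 pairs below 0. Outside the lists, the genes most like each by this correlation were Enpep (0.984) for Pln, Itga8 (0.998) for Atp2a2, Frmpd4 (0.981) for Ryr2, Hipk3 (0.989) for Itpr1 and Pkn2 (0.985) for Cacna1c. For the others they were Bicral (0.961) for Kcnma1, Dusp3 (0.991) for Kcnmb1, Ranbp2 (0.938) for Prkg1, Nudt4 (0.966) for Pde5a and Grb2 (0.986) for Pde3a. The next in order were Tbx2, Tead3, Peli2, Supt5, Tlk1, Fry, Dstn, B430010I23Rik, C330007P06Rik and Kalrn. These are descriptions over 10 clusters that share libraries and depth, and each was the highest of many genes.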

How the data were processed

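The 4 deposited tables hold a signal per gene and cell that the authors made by scaling the UMI counts of each cell to 10000 (linear scale). Per the labels, reads were aligned to GRCm38 with Cell Ranger 7.0.0 (plaque) or 6.1.2 (ligation) and analysed with Seurat. The authors removed plaque cells with fewer than 1500 (control) or 1000 (Trf2T188A) genes or more than 8% mitochondrial reads, and ligation cells with fewer than 1200 genes or more than 6%. Whether intronic reads were counted was not given in the sources used here. Whole UMIs were recovered from the scaled values (100% whole within 0.01). All columns were cells of the 4 libraries.

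Cells were clustered per model with Seurat 5.3.0 (R 4.3.3) from 2000 variable genes, with 74 listed genes kept out, using 18 components and a resolution of 0.9 in plaque and 17 and 0.2 after ligation, without integration. Scrublet (scanpy 1.11.5) called at most 0.323% of cells, so it had not worked, and no doublets were removed. Levels, log2 ratios (pseudocount 1) and delta-method 95% counting intervals were computed in Python 3.11.15 with numpy 2.4.6, pandas 2.3.3 and scipy 1.17.1. The procedure was tested on simulated counts that varied by counting error only. The simulation therefore does not cover variation between cells, mice or libraries. Shares in thinned cells used 8000 UMIs in plaque and 5000 after ligation, leaving out shallower cells. Gene positions were those of GENCODE vM21.

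Named were the 10 genes in every cluster, the contractile genes Myh11, Acta2, Tagln, Cnn1 and Smtn, pathway genes of 6 lists past the limit between genotypes or among the 3 highest and 3 lowest of a cluster, and for each of the 10 the 2 genes most like it over plaque clusters of at least 25 cells among genes detected in at least 10% of plaque cells. The genes and lists were chosen with earlier results of these data known. Alternatives were another pseudocount (0.1), mean log2 values, summed UMIs, a filter on detection, cells under 2000 genes left out, thinning, the top 5% of Scrublet scores left out, other resolutions, other variable genes and single libraries. The filter on detection kept all 10 genes in every median, so it could not change them. No test was made, since each genotype had 1 library per model.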

Additional observations from a re-analysis of the deposited data

Results flagged for a closer look

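Some genes differed in direction between clusters or models in the comparison of Trf2T188A with control. With 1 library per genotype, none of these differences between effects was tested.

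Kcnma1, the pore of the calcium-activated potassium channel, had a log2 ratio of 0.45 in plaque complement cells, −0.41 in Adamtsl1 Mdga2 cells and −0.37 in Sncg Notch3 cells. Over whole models it was −0.062 in all plaque cells and 0.091 in ligation smooth muscle cells. Pde3a, which degrades cyclic AMP, had −0.27 in plaque Itih4 Wnt16 cells, −0.39 in Adamtsl1 Mdga2 cells and 0.34 in fibromyocyte-like cells. Pln, the inhibitor of the calcium pump, had −0.29 in ligation Sparcl1 Rbp4 cells, −0.29 in Gdf10 Ecrg4 cells and 0.34 in interferon cells.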

How the results depend on the processing

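Over all plaque cells the median genotype ratio of the 10 genes was −0.06. It was −0.12 as a difference of mean log2 values, −0.092 without cells under 2000 genes, −0.093 after thinning and, chosen after seeing the data, −0.13 without Dmd Nav2 cells. Over ligation smooth muscle cells it was −0.03, −0.052 with a pseudocount of 0.1 and 0.012 as a difference of mean log2 values. Fibromyocyte-like over contractile-like cells gave −0.48. This was −0.91 with a pseudocount of 0.1, −0.64 as mean log2, −0.63 from summed UMIs, −0.59 with the top 5% of Scrublet scores left out and −0.55 at the lower resolution. Chosen after seeing the data, it was −0.56 with the cells in another order. With the contractile-like, Sparcl1 Atf3 and Mylk4 clusters together, also chosen after seeing the data, it was −0.66. Gdf10 Ecrg4 over Sparcl1 Rbp4 cells gave −0.21, −0.33 with a pseudocount of 0.1 and, chosen after seeing the data, −0.26 with the cells in another order. The lower resolution had no separate Gdf10 Ecrg4 cluster and gave no value. The cause of these shifts was not tested. Of all values recomputed, 1758 moved by less than their counting interval and 397 moved by more. Sign was compared only for values past the limit, and 0 of those changed sign. For a single gene another pseudocount cannot change the sign, so those values could not have done so. Listing the cells in another order gave a contractile-like cluster of 705 in place of 485 cells, with 483 shared, and a Sparcl1 Atf3 cluster of 155 in place of 303, with 94 shared. The Mylk4 and Adamtsl1 Mdga2 clusters were not looked for in that order. With 1 library per genotype no replicate could be left out. No paired analysis was possible because each genotype had 1 library per model. Depth limits Pln, Cacna1c and Kcnma1 after ligation, which had few UMIs per cell.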

Other observations

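In plaque, the tenth of cells with the most Pln UMIs held 86.3% of them, and after ligation it held 69.0%. A Pln UMI was seen in 429 of 2431 plaque cells and 2879 of 10359 ligation cells, so most cells held none. In ligation Sparcl1 Rbp4 cells, which had most of the Pln and Kcnma1 transcripts of that model, the transcripts were not found together more often than apart. Thinned to 5000 UMIs, 32.9% (27.8% to 38.4%) of control cells with a Kcnma1 UMI also had a Pln UMI, against 33.2% (30.4% to 36.1%) of those without. In the Trf2T188A library the shares were 21.9% (18.4% to 25.7%) and 28.9% (26.7% to 31.1%). For cells with and without a Ryr2 UMI they were 38.1% and 31.2% in control and 28.3% and 26.8% in Trf2T188A cells. For Kcnmb1 they were 33.5% and 32.7%, and 27.5% and 26.8%. No test was made of these shares.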
